A study of Mus musculus with 2 samples.

Results

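Fatty acid oxidation was followed through 34 genes, of the 54532 in the deposited table, that carry fatty acids into mitochondria or peroxisomes and shorten them there. The genes were chosen by name, for their textbook roles, but with earlier results of these data known. They fell into 6 groups: 7 of the carnitine shuttle, 4 acyl-CoA synthetases, 11 enzymes of the mitochondrial cycle, 3 electron transfer proteins, 7 peroxisomal enzymes and 2 regulators. All 34 were in the table, each on 1 line, and 32 had a mean of at least 1 FPKM. Cpt1b and Acox2 fell under this level. FPKM values are fragments scaled by gene length and by a factor for each library.

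The mouse libraries came from adipose samples of 2 genotypes, WT and Trappc9 knock out (KO), with 1 library for each. The product of Trappc9 belongs to the TRAPP complexes of vesicle transport. The mice were 3 to 4 weeks old, and the series' design text speaks of abdominal fat pads from 3 WT and 3 KO mice that were digested with collagenase, strained and pelleted. The sample titles speak of stem cells derived from fat and the extraction label of flash-frozen pads, so which preparation was sequenced is unclear from the labels. Whether the 3 mice were pooled, and their sex, strain and Trappc9 allele, are not stated there. With 1 library per genotype no difference below could be checked against replicates, and p-values are not given.

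Fatty acids are first joined to coenzyme A by acyl-CoA synthetases. Long-chain acyl groups are passed to carnitine by CPT1 on the outer mitochondrial membrane, carried inward by a translocase and returned to coenzyme A by CPT2, after which each turn of the cycle dehydrogenates, hydrates, dehydrogenates and cleaves the chain, and the first dehydrogenation feeds electrons through the electron transfer flavoprotein into the respiratory chain. Peroxisomes run a parallel cycle, with oxidases in place of dehydrogenases, on very long and branched chains and bile acid precursors. The nuclear receptor PPARA, with its coactivators, switches on much of this program in fasting liver, heart and brown fat.

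The libraries held 13705193 (WT) and 14783728 (KO) fragments, recovered from the FPKM values and the listed gene lengths. Trappc9 itself stood at 9.94 and 12.6 FPKM, so the gene-level value did not check the label, and the libraries are named by their labels. The material was not mainly fat cells: the 14 markers of mature adipocytes summed to 61.4 and 62.4 FPKM, with a highest value of 27.4 and 31.0 FPKM and none at 0. Of the 10 measured, 3 were higher in the library labelled KO and 2 lower, beside 24.6% and 17.6% of all 13084 measured protein-coding genes. Adipoq, at 2.30 and 0.506 FPKM, was the only one 2-fold lower. The 12 markers of adipose progenitors summed to 370 and 338 FPKM, and the 8 general epithelial markers to 1244 and 1301 FPKM. The 16 markers of epididymal epithelium summed to 20700 and 28974 FPKM, from 3.51% and 4.37% of all fragments, with none at 0. Of these 16, 15 were higher in the library labelled KO and 0 lower. The 14 germ cell markers summed to 87.0 and 204 FPKM, with 8 of the 12 measured higher and 3 lower. These shifts moved with every difference given below, and their part in them was not tested. Fewer cells of a type and less RNA per cell cannot be told apart in such bulk samples.

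Levels are deposited FPKM, and of paired values the first belongs to the library labelled WT and the other to the library labelled KO. A ratio is KO over WT, with a 95% Clopper-Pearson interval from the fragments that covers counting error only. A gene is called higher or lower beyond counting error where this interval excludes 1, and a log2 ratio is log2((KO + 1)/(WT + 1)), which understates the change of low genes.

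Differences across the 32 measured genes were small, with single steps that went opposite ways. The summed level of the 34 genes went from 618 to 690 FPKM, a ratio of 1.12 (1.10 to 1.14), which turned to 0.971 after rescaling to TPM (values scaled to the same sum in both libraries). Of the 32, 0 were 2-fold higher and 0 were 2-fold lower, against backgrounds of 0.948% and 0.29%, or 1.24% either way, of 13084 measured protein-coding genes, and log2 ratios ran from −0.49 for Etfb to 0.66 for Acox3. Beyond counting error 11 were higher, or 34.4% of the 32 against a background of 24.6%, and 5 were lower, or 15.6% against a background of 17.6%, with 42.2% of all measured genes called either way. The interval narrows with depth, so these shares depend on the fragments behind each gene. The median log2 ratio was 0.10, against 0.02 over all measured genes, and 22 of the 32 ratios lay above that of the median gene. The calls of small differences depended on how the libraries were scaled to each other. Rescaling to TPM moved the median of all genes by −0.19 and left 3 members higher and 14 lower, against backgrounds of 7.88% and 48.4% of all genes under that scaling. Relative to the median gene, 9 members were higher and 5 lower (backgrounds 21.3% and 20.6%).

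Under each of the 4 scalings tried, Acox3, Cpt1a and Etfa were higher beyond counting error, 3 of 32 beside a background of 7.88% of all genes. The 5 lower genes were Etfb, Cpt1c, Crat, Acsl3 and Acsl4. The alternative scalings all moved ratios downward, so none of them could end a lower call. Calls given below are those of the deposited scaling unless another is named.

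**Figure D1:**
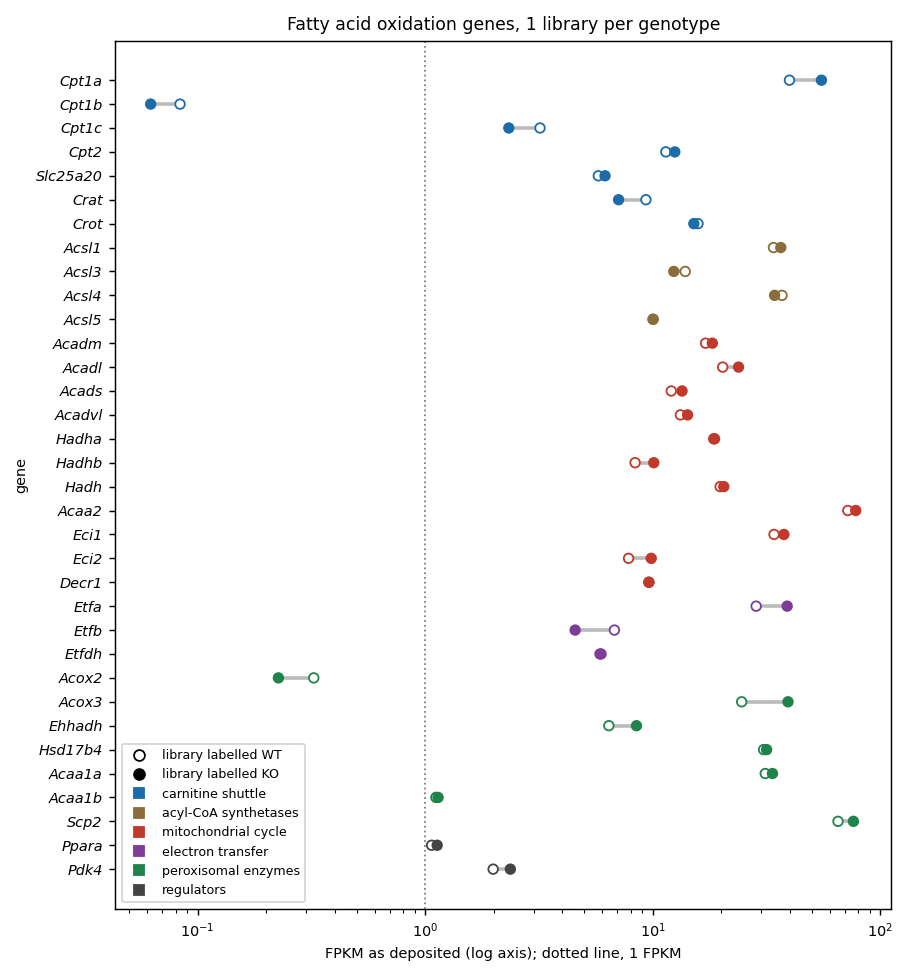
Deposited FPKM of the 34 genes (log axis) in the library labelled WT (open points) and the library labelled KO (filled points), coloured by role. Most pairs of points nearly touch; Cpt1a, Etfa and Acox3 move right from WT to KO and Cpt1c, Crat and Etfb move left, while Cpt1b and Acox2 lie under 1 FPKM.

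The carnitine shuttle was led in both libraries by Cpt1a, the CPT1 form of liver and of most tissues outside muscle and the step at which malonyl-CoA restrains entry. Cpt1a (chromosome 19, 3323301 to 3385732, plus strand, mm10) stood at 39.9 FPKM (2432 fragments, WT label) and at 55.2 FPKM (3394 fragments, KO label). The ratio was 1.38 (1.31 to 1.46), and it fell to 1.20 (1.14 to 1.27) after rescaling to TPM. Cpt1a placed at percentile 91.7 and 93.7 of the measured protein-coding genes.

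The other CPT1 forms had low values. Cpt1c, the form of nerve cells, which lies in the endoplasmic reticulum and has little transferase activity, was at 3.20 and 2.33 FPKM (254 and 187 fragments). Its ratio was 0.729 (0.600 to 0.884), so the pair of CPT1 genes above 1 FPKM went opposite ways. Cpt1b, the form of muscle and brown fat, had 4 and 3 fragments (0.0837 and 0.0622 FPKM), where 3 fragments would give 0.0628 FPKM in the library labelled WT, and no difference was detectable at this depth. Of its principal transcript, 93.0% of all 50-base stretches also occur in the overlapping gene model Gm44502, which had 1 and 0 fragments. The part of this overlap in the low value of Cpt1b was not tested. The 10 striated muscle markers listed summed to 16.8 and 16.2 FPKM, with Myh4 at 0 in both. Cpt1a made up 92.4% and 95.8% of the summed FPKM of the 3 forms.

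Bases just upstream of the Cpt1a start are shown because Cpt1a had the highest level of the transport genes and was among the 3 genes higher under each scaling. The stretch is chr19:3323051-3323300 on the plus strand, from RefSeq (GRCm38.p6), with the CCAAT box in capitals.
Cpt1a: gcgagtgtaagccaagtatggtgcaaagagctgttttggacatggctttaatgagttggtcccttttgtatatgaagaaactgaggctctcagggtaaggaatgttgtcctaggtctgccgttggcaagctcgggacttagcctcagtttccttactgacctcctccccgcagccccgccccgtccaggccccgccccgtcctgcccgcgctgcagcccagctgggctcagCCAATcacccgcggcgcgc
The window holds 14 CG pairs and is 59.6% G or C.

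The remaining shuttle genes were lower in level and mixed in direction. Cpt2, the inner membrane transferase, stood at 11.4 and 12.5 FPKM, a ratio of 1.10 (0.952 to 1.26). Slc25a20, the carnitine-acylcarnitine translocase, was at 5.77 and 6.18 FPKM, a ratio of 1.07 (0.931 to 1.23). For neither did the interval exclude 1. Cpt1a exceeded Cpt2 by 3.49 times in the library labelled WT and by 4.41 times in the library labelled KO, in deposited FPKM.

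Crat, which moves acetyl and other short acyl groups between coenzyme A and carnitine, was at 9.34 FPKM (713 fragments) and 7.08 FPKM (546 fragments). Its ratio of 0.758 (0.677 to 0.849) was the lowest of the 6 measured genes of the group after Cpt1c. Dolpp1, which overlaps Crat on the opposite strand, had 345 and 287 fragments, and no source used here states whether fragments were counted by strand. Crot, the peroxisomal carnitine octanoyltransferase that exports shortened chains, was at 15.8 and 15.2 FPKM, a ratio of 0.959 (0.884 to 1.04). In sum, the 7 shuttle genes went from 85.6 to 98.5 FPKM (ratio 1.15, counting interval 1.11 to 1.20). Without Cpt1a the other 6 genes went from 45.6 to 43.3 FPKM, a ratio of 0.949 (0.899 to 1.00). Of the 6 measured genes, 1 was higher and 2 lower beyond counting error (backgrounds 24.6% and 17.6%). The median log2 ratio was 0.01, against 0.02 over all measured genes, and became −0.18 after rescaling to TPM, against −0.17 over all measured genes.

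Acyl-CoA synthetases, which trap and activate long-chain fatty acids, summed to 94.9 and 93.4 FPKM (ratio 0.983, 0.954 to 1.01, and 0.855 after rescaling to TPM). Acsl1, the form tied to fat storage and oxidation in fat, liver and heart, stood at 34.0 and 36.6 FPKM (5044 and 5485 fragments). Its ratio was 1.08 (1.04 to 1.12) as deposited but 0.936 (0.901 to 0.973) after rescaling to TPM, so its call turned from higher to lower. Acsl4, which prefers arachidonic acid, was at 37.0 and 34.4 FPKM, a ratio of 0.928 (0.880 to 0.978). Acsl3, a form of the endoplasmic reticulum and lipid droplets, was at 13.9 and 12.4 FPKM, a ratio of 0.891 (0.807 to 0.983). Acsl5 was level at 10.0 FPKM in both, with a ratio of 1.00 (0.899 to 1.11). Acsl3 and Acsl4 were thus lower by small amounts.

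Genes of the mitochondrial cycle showed small ratios, nearly all on one side of the median gene. The 11 enzymes summed to 233 and 255 FPKM (ratio 1.09, 1.06 to 1.13), with a median log2 ratio of 0.11. Beyond counting error 4 were higher and 0 lower (backgrounds 24.6% and 17.6%), and 9 of the 11 ratios lay above that of the median gene. After rescaling to TPM 0 were higher and 3 lower (backgrounds 7.88% and 48.4%), and the median was −0.09, against −0.17 over all measured genes.

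The acyl-CoA dehydrogenases make the first step and differ in the chain length they take. Acadvl, for very long chains, was at 13.2 and 14.2 FPKM, a ratio of 1.07 (0.950 to 1.22). Acadl, for long chains, was at 20.3 FPKM (577 fragments) and 23.8 FPKM (684 fragments), a ratio of 1.17 (1.05 to 1.31). That interval included 1 under the other 3 scalings (1.02, 0.912 to 1.14, after rescaling to TPM). Acadm, for medium chains, was at 17.1 and 18.3 FPKM, a ratio of 1.07 (0.979 to 1.17). Acads, for short chains, was at 12.1 and 13.5 FPKM, a ratio of 1.12 (0.971 to 1.28). The intervals of all 4 ratios overlapped. Acadvl overlaps Dvl2, which had 705 fragments in each library, and 24.0% of the 50-base stretches of Acadvl occur in transcripts of that gene.

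Hadha and Hadhb encode the alpha and beta chains of the trifunctional protein, which carries out the later 3 steps on long chains. Hadha stood at 18.6 FPKM (2294 fragments) and 18.7 FPKM (2337 fragments), a ratio of 1.01 (0.952 to 1.07). Hadhb stood at 8.37 FPKM (782 fragments) and 10.1 FPKM (954 fragments), a ratio of 1.21 (1.10 to 1.33). The chains of 1 complex therefore differed in ratio, with intervals that did not overlap. The processed pseudogene Gm13910, which had 266 and 291 fragments, holds 61.5% of the 50-base stretches of the Hadhb transcript. Adding its fragments to those of Hadhb gave a ratio of 1.18 (1.08 to 1.28).

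Both genes lie head to head on chromosome 5, Hadha on the minus strand (30118304 to 30155162) and Hadhb on the plus strand (30155248 to 30184593), with 85 bases between them. These bases are shown because they are the start region that 2 members with different ratios share. They run over chr5:30155163-30155247 on the plus strand (RefSeq, GRCm38.p6), with CG pairs in capitals.
Hadha-Hadhb interval: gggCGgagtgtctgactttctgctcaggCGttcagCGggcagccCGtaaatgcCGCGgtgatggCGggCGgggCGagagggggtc
It holds 9 CG pairs and 0 CCAAT boxes.

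Other neighbours among the 34 genes were farther apart. Scp2 and Cpt2 lie on the minus strand of chromosome 4 with 120 kb between them, and Acaa1a and Acaa1b on chromosome 9, on opposite strands, with 183 kb between them. No other pair lay within 500 kb.

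Of the later enzymes of the cycle, Hadh, the dehydrogenase for medium and short chains, was at 19.8 and 20.5 FPKM, a ratio of 1.04 (0.963 to 1.12). Acaa2, the mitochondrial thiolase (chromosome 18), had the highest FPKM of all 34 genes, 72.1 and 78.1. Its ratio was 1.08 (1.01 to 1.16), and its log2 ratio turned to −0.09 after rescaling to TPM.

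Enzymes that prepare unsaturated chains came in a high and a low form by deposited FPKM, which depends on the listed gene length. Eci1, the mitochondrial enoyl-CoA isomerase, was at 34.2 and 37.7 FPKM, a ratio of 1.10 (0.981 to 1.24). Eci2, an isomerase found in both mitochondria and peroxisomes, was at 7.84 FPKM (615 fragments) and 9.86 FPKM (781 fragments). Its ratio of 1.26 (1.13 to 1.40) was the largest of the 11. At the length of the principal transcript the isomerase genes stood closer, Eci1 at 32.8 and 36.2 FPKM and Eci2 at 24.9 and 31.3 FPKM. Decr1, the mitochondrial dienoyl-CoA reductase, was level at 9.63 and 9.62 FPKM, a ratio of 1.00 (0.885 to 1.13).

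Electron transfer genes had the widest range of log2 ratios of the 6 groups, −0.49 to 0.44. Etfa, the alpha chain of the electron transfer flavoprotein, stood at 28.5 FPKM (741 fragments) and 39.0 FPKM (1024 fragments). The ratio was 1.37 (1.24 to 1.51). Etfb, its beta chain, stood at 6.79 FPKM (112 fragments) and 4.56 FPKM (76 fragments), a ratio of 0.672 (0.495 to 0.907). Etfdh, the membrane oxidoreductase that passes the electrons to ubiquinone, was at 5.87 and 5.93 FPKM, a ratio of 1.01 (0.904 to 1.13). The alpha chain exceeded the beta chain by 4.20 times in the library labelled WT and by 8.55 times in the library labelled KO.

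The Etfb value rests on few fragments. In GENCODE M21, 67.3% of the 50-base stretches of its principal transcript also occur in the overlapping gene model Gm45233, on the same strand, which had 1 and 0 fragments in the table. How the authors assigned fragments that match 2 gene models is not stated in any source used here, and the part of this overlap in the low level of Etfb was not tested. Of the Etfa transcript, 4.02% of the stretches occur elsewhere, in a pseudogene with 0 fragments in both libraries.

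The 250 bases before the RefSeq starts of the chains of the flavoprotein are shown because the ratios of these chains of 1 protein went opposite ways. Etfa is chr9:55512244-55512493 on the minus strand and Etfb chr7:43443822-43444071 on the plus strand (RefSeq, GRCm38.p6), with CCAAT boxes, on either strand, in capitals.
Etfa: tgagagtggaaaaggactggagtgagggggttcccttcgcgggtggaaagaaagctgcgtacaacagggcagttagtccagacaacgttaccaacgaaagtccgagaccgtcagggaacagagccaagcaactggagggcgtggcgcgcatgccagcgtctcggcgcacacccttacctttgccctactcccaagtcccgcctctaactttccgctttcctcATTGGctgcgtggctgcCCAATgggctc
Etfb: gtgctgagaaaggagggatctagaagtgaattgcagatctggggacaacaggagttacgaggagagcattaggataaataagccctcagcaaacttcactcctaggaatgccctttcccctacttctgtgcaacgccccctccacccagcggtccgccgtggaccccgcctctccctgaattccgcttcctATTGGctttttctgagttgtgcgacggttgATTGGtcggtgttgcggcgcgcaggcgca
Each holds 2 CCAAT boxes, and they hold 16 (Etfa) and 14 (Etfb) CG pairs, so these counts did not set the chains apart.

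**Figure D2:**
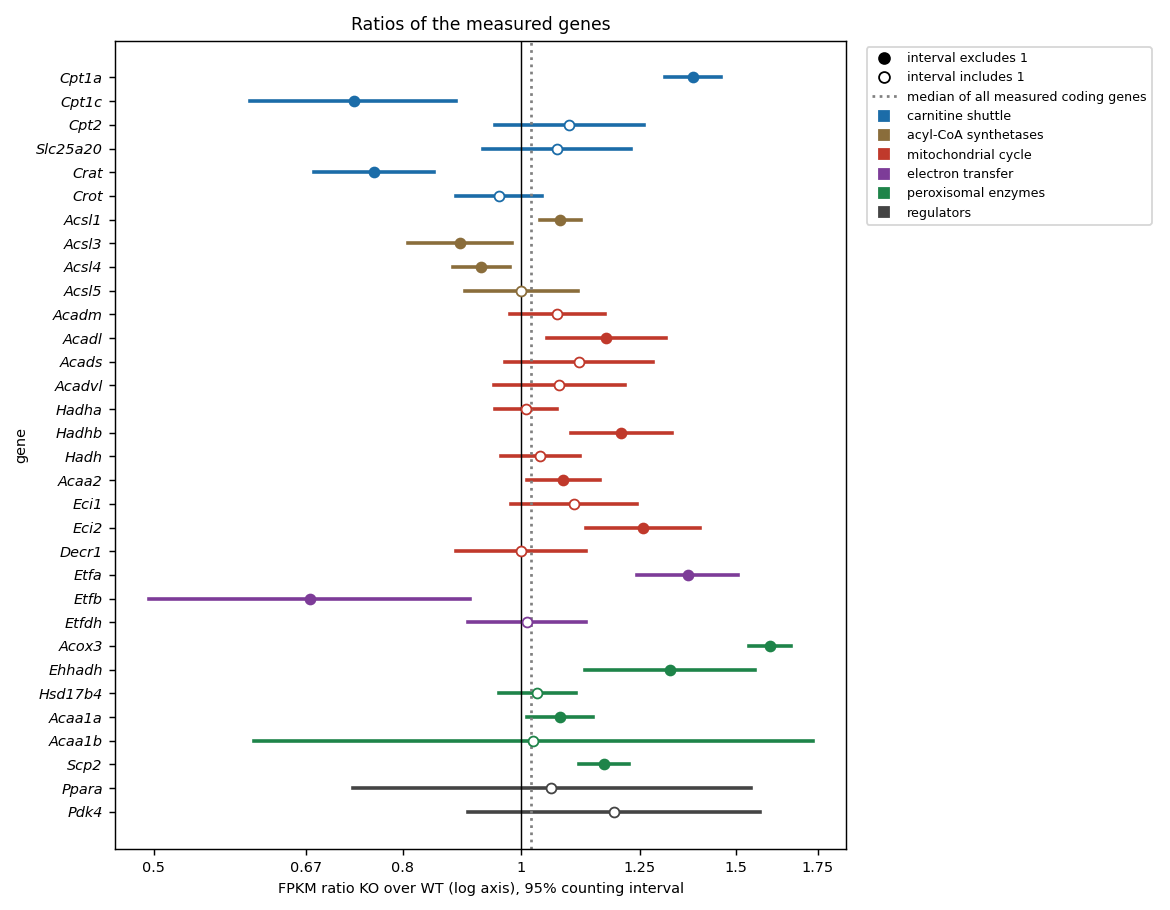
FPKM ratio KO over WT (log axis) of the 32 measured genes with 95% counting intervals, coloured by role; filled points exclude 1 and the dotted line is the median gene. Acox3 (1.60), Cpt1a (1.38) and Etfa (1.37) lie farthest right, and Etfb (0.672), Cpt1c (0.729) and Crat (0.758) farthest left.

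Peroxisomal enzymes held the largest ratio of the program. Acox3, an oxidase for branched chains and the first step of that route, stood at 24.6 FPKM (4017 fragments) and 39.4 FPKM (6485 fragments). The ratio was 1.60 (1.54 to 1.66), and 1.39 (1.34 to 1.45) after rescaling to TPM. Of all measured protein-coding genes, 2.27% had a log2 ratio above the 0.66 of Acox3. Acox3 has a long listed length, 11521 bases against 3976 for its principal transcript, and an antisense gene within it, 4931431C16Rik, had 32 and 40 fragments.

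Acox2, the bile acid and branched chain oxidase of liver and kidney, had 17 and 12 fragments (0.324 and 0.227 FPKM), a ratio of 0.699 (0.305 to 1.55), so no difference was detectable at this depth.

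Ehhadh, the bifunctional enzyme of the straight-chain route, stood at 6.42 FPKM (271 fragments) and 8.49 FPKM (362 fragments), a ratio of 1.32 (1.13 to 1.55). After rescaling to TPM its interval no longer excluded 1. Hsd17b4, the bifunctional enzyme for branched chains and bile acid precursors (chromosome 18), was level at 30.7 and 31.7 FPKM, a ratio of 1.03 (0.959 to 1.11). The intervals of these alternative second-step enzymes did not overlap.

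Scp2, which gives rise to the branched-chain thiolase and to a sterol carrier, was the second most abundant of the 34 genes, at 65.3 FPKM (3215 fragments) and 76.3 FPKM (3795 fragments). The ratio was 1.17 (1.11 to 1.23), and 1.17 (1.11 to 1.22) with the fragments of the pseudogene Scp2-ps2 added, which holds 41.4% of its 50-base stretches.

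The straight-chain thiolase has a pair of gene copies in the mouse. Acaa1a was at 31.3 and 33.6 FPKM (1954 and 2123 fragments), and Acaa1b, the copy best known from liver, at 1.12 and 1.14 FPKM (31 and 32 fragments). The copies share 34.0% of the 50-base stretches of Acaa1a, so their split is uncertain. Summed, they gave a ratio of 1.08 (1.01 to 1.14). Acaa1a alone was called higher as deposited but lower after rescaling to TPM, where its ratio was 0.935 (0.879 to 0.995). Myd88 and Dlec1 overlap Acaa1a and Acaa1b on the opposite strand, with 815 and 735 fragments for Myd88 and 260 and 398 for Dlec1.

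In sum, the 7 peroxisomal genes went from 160 to 191 FPKM, a ratio of 1.19 (1.16 to 1.23), and 1.04 after rescaling to TPM. Without Acox3 the other 6 went from 135 to 151 FPKM, a ratio of 1.12 (1.09 to 1.16), and 0.974 (0.943 to 1.01) after rescaling. Of the 6 measured, 4 were higher and 0 lower beyond counting error (backgrounds 24.6% and 17.6%). After rescaling to TPM 1 was higher and 2 lower (backgrounds 7.88% and 48.4%). All 6 ratios lay above the 1.018 of the median gene, though Acaa1b, on 31 and 32 fragments, did so only just at 1.022. The median log2 ratio of the 6 measured, 0.16, was the highest of the 6 groups as deposited. With no filter on FPKM, which brings in Acox2, the peroxisomal median was 0.10, below 0.11 for the mitochondrial cycle and for regulators. The filtered median turned to −0.04 after rescaling to TPM, below −0.02 for regulators, against −0.17 over all measured genes.

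The regulators stood near the lower limit of what was measured. Ppara (chromosome 15, 85734983 to 85802819, plus strand) was at 1.07 and 1.13 FPKM (58 and 62 fragments), a ratio of 1.06 (0.728 to 1.54). Pdk4, which restrains pyruvate dehydrogenase when fatty acids are burned and is a classical PPARA target, was at 1.99 and 2.37 FPKM (99 and 119 fragments), a ratio of 1.19 (0.904 to 1.57). Both intervals included 1, and at these depths no difference was detectable for either gene.

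**Figure D3:**
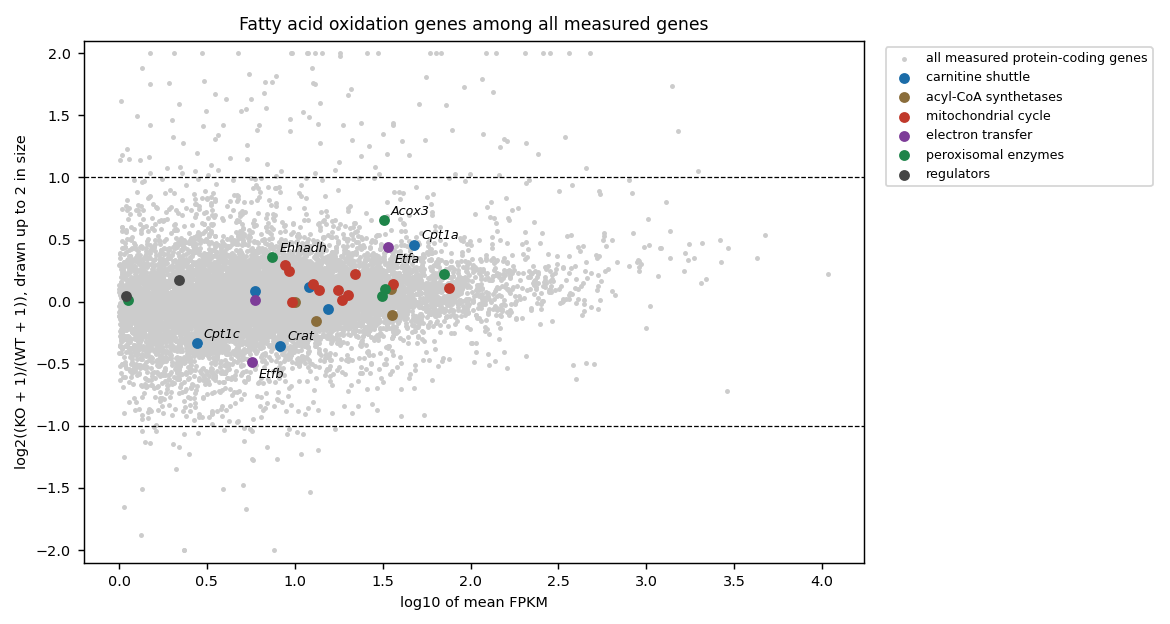
Log2 ratio against log10 of mean FPKM for all 13084 measured protein-coding genes (grey, drawn up to 2 in size) and for the 32 measured fatty acid oxidation genes, coloured by role; dashed lines mark 2-fold. All 32 lie between the dashed lines, from −0.49 (Etfb) to 0.66 (Acox3).

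The rest of the pathway was followed through 144 further genes in 11 lists, of which 121 were measured. These lists too were chosen with earlier results of these data known. Beyond counting error 40 were higher and 11 lower, or 33.1% and 9.09% of the 121, against backgrounds of 24.6% and 17.6%. After rescaling to TPM 11 were higher and 43 lower, against backgrounds of 7.88% and 48.4%. Their median log2 ratio was 0.09, beside 0.10 for the 32 measured members, and −0.10 for each after rescaling. The medians of the 11 lists, given below as deposited, were all under 0 after rescaling to TPM. Counts of higher and lower genes in each list stand beside the same backgrounds of 24.6% and 17.6%. The lists overlap in part, and Acot2 counts among both the thioesterases and the other PPARA targets.

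Of 18 other mitochondrial oxidation enzymes, 8 were higher and 0 lower (median 0.13). The enoyl-CoA hydratase-like gene Echdc2 was at 49.7 and 65.0 FPKM, the acyl-CoA dehydrogenases Acad12 at 2.37 and 3.13 FPKM and Acad10 at 3.41 and 4.32 FPKM, and Hsdl2 at 15.2 and 18.5 FPKM. Of 15 measured genes of other peroxisomal oxidation and import, 6 were higher and 1 lower (median 0.13). Slc27a2, which activates very long chains, stood at 1.71 FPKM (91 fragments) and 3.67 FPKM (197 fragments), a ratio of 2.14 (1.66 to 2.78). The enoyl-CoA reductase gene Pecr was at 6.10 and 8.67 FPKM and the peroxisomal dienoyl-CoA reductase gene Decr2 at 9.20 and 12.0 FPKM. Of 16 measured genes that build peroxisomes, 4 were higher and 1 lower, with Pex3, which recruits membrane proteins, at 4.78 and 6.03 FPKM and Pex13, of the import pore, at 6.81 and 5.69 FPKM.

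Carnitine supply had the lowest median of the pathway lists, −0.16. Of its 8 measured genes, 4 were lower and 2 higher. The carnitine transporter genes Slc22a21, at 4.11 and 2.38 FPKM (ratio 0.579, 0.460 to 0.726), and Slc22a16, at 2.69 and 1.56 FPKM (ratio 0.581, 0.407 to 0.822), were lower. Bbox1, the last enzyme of carnitine synthesis, was at 1.09 FPKM (68 fragments) and 2.27 FPKM (143 fragments), a ratio of 2.08 (1.55 to 2.82). Slc22a16 is known from the epididymis and testis, and Slc22a4 was at 0.747 and 1.42 FPKM.

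Uptake and activation genes were split, with 3 of 12 higher and 2 lower (median −0.0012). Slc27a3 was at 4.12 and 2.29 FPKM, Acsbg1, the bubblegum acyl-CoA synthetase, at 12.9 and 19.5 FPKM, and the fatty acid binding protein gene Fabp5 at 4.69 and 3.45 FPKM. Of the 9 measured thioesterases, which release fatty acids from coenzyme A, 2 were higher and 0 lower: Acot2 of the mitochondrial matrix (4.31 and 7.35 FPKM) and Acot13 (26.0 and 35.1 FPKM). Genes that set malonyl-CoA and with it CPT1 activity had 3 of 8 higher and 0 lower, led by Mlycd, which breaks malonyl-CoA down, at 5.83 and 7.33 FPKM. Ketone body enzymes had 3 of 5 higher and 0 lower, with Bdh1, which interconverts the ketone bodies, at 3.00 and 3.81 FPKM.

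Of regulators beyond Ppara, 4 of 15 were higher and 2 lower (median 0.05). Lpin1, a phosphatidate phosphatase that also acts as a coactivator, was at 3.84 and 6.25 FPKM, Esrra, a nuclear receptor of oxidative genes, at 11.7 and 14.6 FPKM, and Hnf4a at 3.13 and 4.10 FPKM. Pparg was at 1.75 and 1.33 FPKM (ratio 0.760, 0.526 to 1.09). Other genes known as PPARA targets had 4 of 8 higher and 1 lower: Ucp2 was at 48.2 and 64.1 FPKM, whereas Plin2, a lipid droplet coat gene that responds to fatty acids, was at 8.97 and 7.31 FPKM. Of the 12 genes of the pyruvate dehydrogenase complex and its kinases, 4 were higher and 0 lower. Pdk2 (39.6 and 51.5 FPKM) and Pdk1 (13.2 and 16.1 FPKM) stood far above Pdk4 in level.

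Neighbouring mitochondrial programs gave the frame for these values. Nuclear genes of oxidative phosphorylation had a median log2 ratio of 0.07, with 9 of 27 higher and 1 lower (backgrounds 24.6% and 17.6%). After rescaling to TPM 0 were higher and 14 lower (backgrounds 7.88% and 48.4%), and the median was −0.13. Genes of the citric acid cycle had 0.04, with 5 of 15 higher and 1 lower, and 0 higher and 9 lower after rescaling (median −0.16). Genes encoded by mitochondrial DNA had 0.39, with 10 of 12 higher and 0 lower (8 and 1 after rescaling to TPM, median 0.20). Their log2 ratios ran from −0.45 to 0.87, led by mt-Co3 at 28.7 and 53.5 FPKM and mt-Co1 at 3853 and 5590 FPKM. The medians of the nuclear lists, −0.05 to 0.16 for the 6 groups and −0.16 to 0.16 for the related lists, thus lay below that of the mitochondrial genome.

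**Figure D4:**
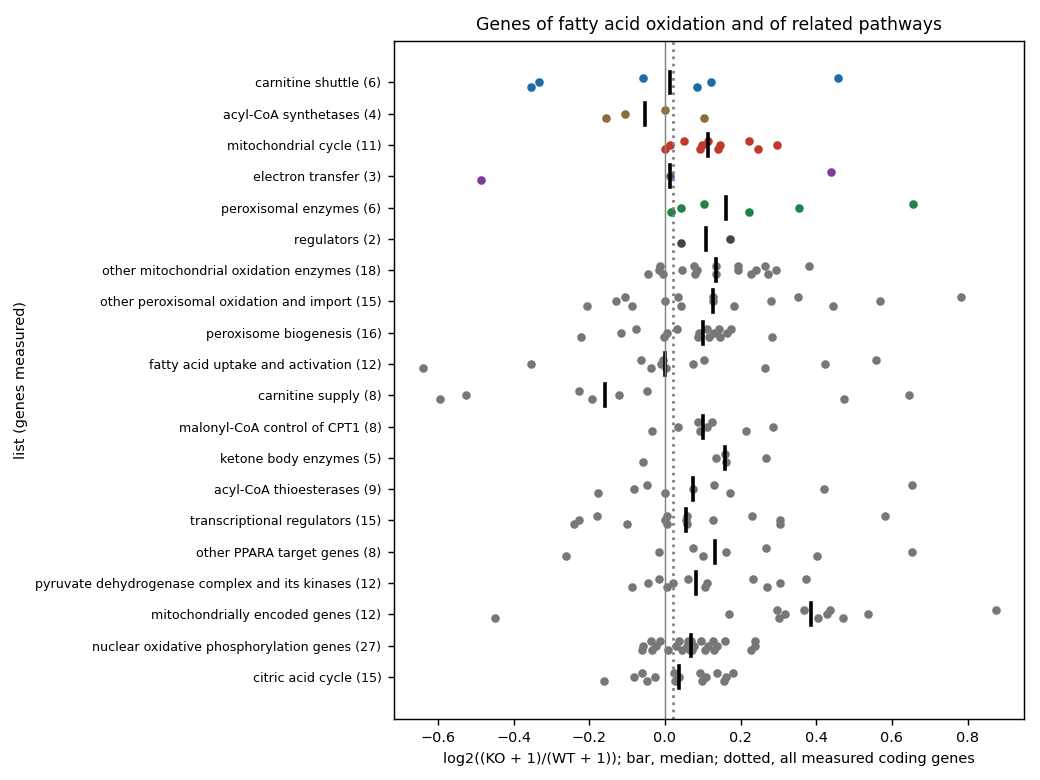
Log2 ratios of measured genes (points) in the 6 fatty acid oxidation groups (coloured) and the related lists (grey), with medians as bars and the number of measured genes in brackets; the dotted line is the median of all measured protein-coding genes, 0.02. Medians of the 6 groups run from −0.05 to 0.16, and genes encoded by mitochondrial DNA stand apart at 0.39.

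The order of levels within the program depended on the gene length used. The listed length is the union of all exons, which matched GENCODE M21 for 31 of the 34 genes, and was between 0.960 and 3.22 times the length of the principal coding transcript (median 1.27). Ratios between libraries do not change with it. By deposited FPKM in the library labelled WT the leading genes were Acaa2, Scp2, Cpt1a and Acsl4. By principal transcript length they were Acsl1 (91.4 FPKM), Scp2 (86.0 FPKM), Acaa1a (78.3 FPKM) and Acaa2 (72.0 FPKM), and Cpt1a (39.8 FPKM) moved from the third to the 8th place. Acox3 moved from the 10th to the 5th place, at 71.3 FPKM, and in the library labelled KO it was first, at 114 FPKM. Hadha exceeded Hadhb by 2.22 times in deposited FPKM but by 1.50 times per transcript length, and the share of Acsl1 among the 4 synthetases went from 35.8% to 58.5%. Cpt1b, Acox2, Ppara and Acaa1b were the lowest 4 under both lengths.

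**Figure D5:**
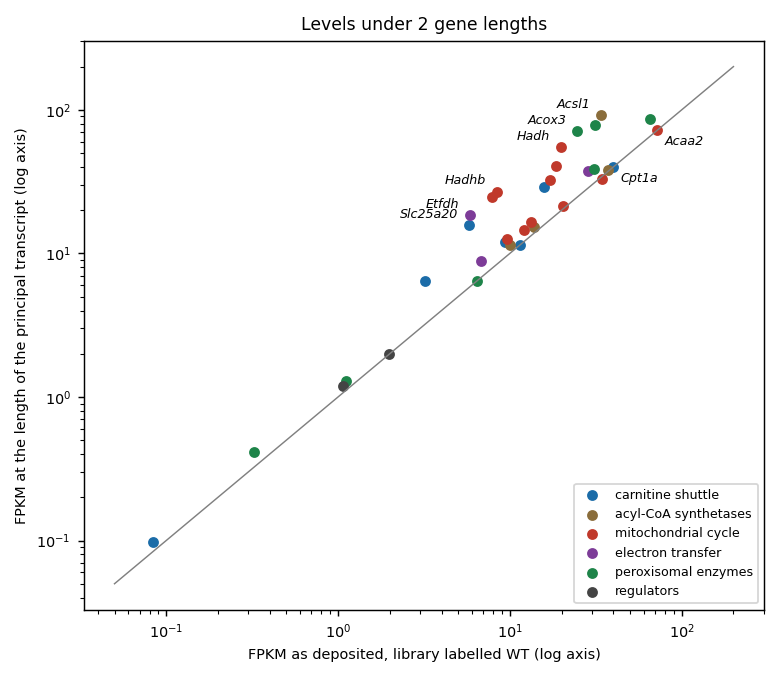
Level of each of the 34 genes in the library labelled WT at the deposited length (horizontal) and at the length of its principal GENCODE M21 transcript (vertical), both in FPKM on log axes; the line marks equal values. Acaa2 and Cpt1a lie on the line, whereas Acsl1, Acox3, Hadh, Hadhb, Etfdh and Slc25a20 lie well above it.

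Start regions were compared for what the choice of genes did not use. RefSeq windows from 250 bases before to 50 after a start were found for 29 of the 34 genes (31 windows). The full PPAR element, a direct repeat of AGGTCA with 1 base between the copies, occurred exactly, on either strand, in 0 of these and in 0.0396% of all 32851 windows. The extended half-site TNAAGGTCA was in 0 and in 1.28%, and the half-site AGGTCA, which is part of both, in 5 (16.1%) and in 16.3%. Among windows of measured protein-coding genes, the full element was in 0.0305%, the extended half-site in 0.817% and the half-site in 12.9%. For the full element and the extended half-site, backgrounds this low make 0 in 31 windows the likely count for any genes. Those counts of 0 therefore cannot set the members apart from other genes. CCAAT, searched after the sequences were seen, was in 16 (51.6%) and in 37.4%, and in 37.3% of the 13097 windows of measured protein-coding genes. Median G or C content was 60.3% in the members' windows, 52.7% in all windows and 60.3% in those of measured protein-coding genes, and the median number of CG pairs was 17, 7 and 20.

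The half-sites are shown with up to 10 bases on either side, since the half-site is the unit of the PPAR element. The half-site, or its reverse complement, is in capitals, and each line reads 5′ to 3′ in the direction of the gene (RefSeq, GRCm38.p6).
Cpt1a: gtttccttacTGACCTcctccccgca
Acadm: gTGACCTtcgggctccg
Acadvl: ggatcaccctAGGTCAggtagaatac
Cpt1c: gcagggagggAGGTCAaggctgtttc
Scp2: ctaacacagtAGGTCAaaagaaccca
They lie at chr19:3323197-3323222 (plus strand), chr3:153944877-153944893 (minus), chr11:70015500-70015525 (minus), chr7:44974982-44975007 (minus) and chr4:108118641-108118666 (minus), the last at a start inside the Scp2 gene. Of the 5 genes, Cpt1a and Scp2 were higher beyond counting error, Cpt1c was lower, and the intervals of Acadm and Acadvl included 1.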

How the data were processed

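The authors deposited 1 table of gene-level FPKM with gene lengths and positions on mm10. Per the labels' protocols, TruSeq libraries took 1 µg of RNA each. Reads were aligned with HISAT2 2.0.5, per the submitters' processing notes, which list the builds mm10 and hg38. The counting program was not stated in any source used here. Fragments per gene were recovered from FPKM times length (100% of values whole within 0.01 fragment). Values were used as deposited, with a pseudocount of 1 FPKM, and counts over genes took those with a mean of at least 1 FPKM. Intervals at 95% were Clopper-Pearson for genes and a normal approximation on the log scale for sums. No source used here mentions molecular identifiers. The 4 scalings were the deposited one, TPM, total fragments, and an equal sum without the 100 most abundant genes. Members and lists were chosen with earlier results of these data known. Every member could be named, with up to 4 genes per related list, those of the largest log2 ratio in size at a mean of at least 1 FPKM. Transcript lengths and shared 50-base stretches, on both strands, came from GENCODE M21, and promoters from RefSeq. Recovery and intervals were tested on simulated data that held counting error only, with no variation between mice or libraries (Python 3.11.15, scipy 1.17.1). Some genes of the related lists are not reported here by name.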

Additional observations from a re-analysis of the deposited data

How the results depend on the processing

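No paired analysis was possible because the result comes from no test, with 1 library per genotype. Leaving out a replicate was not run for the same reason. Depth limited Cpt1b, Acox2, Acaa1b, Ppara, Etfb and Pdk4, whose intervals were the widest.

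Scaling moved the results. The median of all measured genes shifted by −0.19 under TPM, −0.08 under total fragments and −0.09 without the 100 most abundant genes. Under TPM the log2 ratios of Acsl1, Acaa2 and Acaa1a became −0.095, −0.087 and −0.096. Acsl1 and Acaa1a were then called lower beyond counting error, and the interval of Acaa2 included 1. Median log2 ratios under TPM were −0.10 for all members, −0.18 for the carnitine shuttle, −0.25 for synthetases, −0.087 for the mitochondrial cycle, −0.18 for electron transfer, −0.036 for peroxisomal enzymes and −0.025 for regulators. Ratios of summed FPKM under TPM were 0.971 for all members, 1.00 for the shuttle, 0.855 for synthetases, 0.949 for the mitochondrial cycle, 1.05 for electron transfer and 1.04 for peroxisomal enzymes, with 3 members higher beyond counting error (7.88% of all genes) and 14 lower (48.4%).

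Under total fragments the medians were −0.072 for the shuttle and −0.068 for electron transfer. Ratios of sums were 1.05 for all members, 1.08 for the shuttle, 0.921 for synthetases, 1.02 for the mitochondrial cycle and 1.12 for peroxisomal enzymes, with 7 members higher (14.5% of all genes) and 6 lower (30.3%). Without the 100 most abundant genes the medians were −0.0035 for all members, −0.081 for the shuttle, −0.076 for electron transfer and 0.059 for peroxisomal enzymes. Ratios of sums were then 1.04 for all members, 1.07 for the shuttle, 0.914 for synthetases, 1.01 for the mitochondrial cycle and 1.11 for peroxisomal enzymes, with 7 members higher (13.6% of all genes) and 7 lower (31.9%). With no filter the shuttle median was −0.029, since Cpt1b then entered it. Relative to the median gene, an alternative chosen after seeing the data, 9 were higher and 5 lower. Chosen likewise, the ratio of sums was 0.949 for the shuttle without Cpt1a and 1.12 for peroxisomal enzymes without Acox3. No setting gave a member 2-fold higher or lower.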
